A study of Mus musculus with 13 samples.

Results

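The small leucine-rich proteoglycans are secreted proteins built of leucine-rich repeats. Here 9 of their genes were followed in primary cultures of mouse embryonic fibroblasts (MEFs) and in immortalized lines of MEFs. The genes were taken by symbol and not by a threshold on their values, though earlier results of these data were known. Class I gave decorin (Dcn), biglycan (Bgn) and asporin (Aspn). Class II gave lumican (Lum), fibromodulin (Fmod), prolargin (Prelp) and osteomodulin (Omd), class III osteoglycin (Ogn) and class V podocan (Podn). All 9 were found among the 55487 genes of the deposited count tables, and all 9 passed the filter on low counts in each comparison. Several of the protein cores carry chondroitin, dermatan or keratan sulfate chains. In connective tissue they sit on collagen fibrils and set their spacing and width, and several bind growth factors such as TGF-β or signal through surface receptors once they are released from the matrix.

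Poly-A RNA of 13 cultures was sequenced, in 4 groups. WT primary MEFs of clones 3, 4 and 5, from 3 embryos, were set beside the 3 immortalized lines 3, 4 and 5 raised from them. These lines became immortal spontaneously after serial passage in fetal calf serum, whose share in the medium was raised once the cells had become senescent. MEFs labelled Prkd3-/-, after the gene of protein kinase D3, comprised primary clones 13, 14 and 15 (n = 3) and immortalized lines 13, 13a, 14 and 15 (n = 4). Of these lines, 13 and 13a carry the number of the same clone. How the Prkd3-/- lines were raised is not given in the sources used here. A WT line is what outgrew senescence in its own culture. Each line of either genotype was sequenced once, so a difference between single lines has no replicate check. The age of the embryos and the Prkd3 allele are not given in the sources used here, and the genotypes were deposited as separate tables, so genotype and table cannot be told apart. Whether the Prkd3-/- clones come from separate embryos is not stated either, and p-values that use them measure only the spread between these cultures.

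Library totals ranged from 35273408 to 100441756 counts, and 3 counts, taken as the floor, correspond to 0.0299 to 0.085 counts per 1000000 counts of the library (CPM). The floors, and the interval given for Lum in line 3, cover counting error only. Intervals of Log2FC values come from the fits and include the spread between cultures of a group. Per library total, Prkd3 itself was counted at 66.1 to 84.3 CPM in the WT libraries and at 33.9 to 64.01 CPM in those labelled Prkd3-/-, and counts per gene do not show which exons the reads came from. The 7 fibroblast markers together stood at 26361 to 87227 CPM, and in every group each of them reached 1 CPM in some library. Between replicates, expression varied by 2.06 to 3.28% beyond sampling noise among WT primary cultures, by 18.7 to 24.4% among WT lines and by 24.2 to 48.2% among Prkd3-/- lines. Primary clone 14 stood apart from clones 13 and 15 (20.2% and 18.6%, against 8.11% between those), with 29075 CPM of fibroblast markers against 48832 and 49140.3, and 878 CPM of macrophage markers against 81.6 and 188.

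The genes lie in 3 clusters and at 2 single sites. In GRCm38 coordinates, Dcn and Lum share 93095 bases of chromosome 10, Aspn, Omd and Ogn share 80059 bases of chromosome 13, and Prelp and Fmod share 137974 bases of chromosome 1, whereas Bgn is on the X chromosome and Podn on chromosome 4. The 250 bases before the RefSeq start site (build GRCm38.p6) are printed for Bgn, the most even of the 9 genes across these libraries, and for the 3 neighbours on chromosome 13, whose levels moved by different amounts in the same lines. RefSeq windows were matched for 7 of the 9 genes, not for Dcn and Lum. Capitals mark 3 strings of letters on either strand, namely TATAAA, further CCAAT, and also GGGCGG.
Bgn (biglycan, chrX:73483351-73483600, + strand): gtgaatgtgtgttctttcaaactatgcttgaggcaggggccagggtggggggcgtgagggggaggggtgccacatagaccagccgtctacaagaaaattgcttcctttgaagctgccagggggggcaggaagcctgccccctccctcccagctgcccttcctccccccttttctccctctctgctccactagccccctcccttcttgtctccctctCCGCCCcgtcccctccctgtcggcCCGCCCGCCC
Aspn (asporin, chr13:49544193-49544442, + strand): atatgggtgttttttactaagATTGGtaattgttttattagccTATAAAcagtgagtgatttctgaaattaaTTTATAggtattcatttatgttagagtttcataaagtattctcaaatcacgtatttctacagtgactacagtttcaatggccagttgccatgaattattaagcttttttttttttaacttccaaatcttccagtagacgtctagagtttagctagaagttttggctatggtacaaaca
Omd (osteomodulin, chr13:49582212-49582461, + strand): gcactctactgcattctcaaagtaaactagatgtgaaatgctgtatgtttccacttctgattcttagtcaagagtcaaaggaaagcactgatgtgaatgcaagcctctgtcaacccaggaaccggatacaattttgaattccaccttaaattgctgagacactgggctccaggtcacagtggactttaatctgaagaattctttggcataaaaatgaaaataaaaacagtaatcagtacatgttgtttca
Ogn (osteoglycin, chr13:49607765-49608014, + strand): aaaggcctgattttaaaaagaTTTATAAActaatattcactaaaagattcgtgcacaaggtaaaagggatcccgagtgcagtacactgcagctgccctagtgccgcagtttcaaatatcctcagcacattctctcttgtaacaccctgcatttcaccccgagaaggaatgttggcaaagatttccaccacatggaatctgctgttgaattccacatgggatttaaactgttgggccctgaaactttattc
The Bgn window held GGGCGG 3 times, with the last pair of matches overlapping, with a GC content of 64.4%. The neighbours had a lower GC content, of 38.4% for Omd, 42.0% for Ogn and, the lowest, 30% for Aspn. TATAAA occurred 2 times in the Aspn window and 2 times, in overlapping matches on opposite strands, in the Ogn window, CCAAT occurred once in the Aspn window, and the Omd window held none of these letters. Of 32851 windows of this length, 12.4% held TATAAA, 33.8% CCAAT and 32.7% GGGCGG, so that the matches are a description only. Podn had the window richest in CpG, with 32 of these pairs, more than in 95.4% of all windows. The window of its other RefSeq start site held 7, more than in 53.7%.

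In WT primary MEFs the 9 genes followed a steep and closely repeated order. Per kilobase of exon, Bgn stood highest at 899.6 ± 20.5 CPM (SD, n = 3), followed by Ogn at 278 ± 17.5, Aspn at 191 ± 0.749, Lum at 75.0 ± 6.30, Fmod at 38.2 ± 2.46, Dcn at 21.9 ± 0.735, Prelp at 21.0 ± 1.08, Podn at 8.05 ± 0.934 and Omd at 6.51 ± 1.09 CPM per kilobase. The ranges of neighbours in that order overlapped between Dcn and Prelp and between Podn and Omd. In the Prkd3-/- primary MEFs Bgn, at 807 ± 202, was again clear of Ogn, at 64.9 ± 16.2 CPM per kilobase (SD, n = 3). Below Ogn, however, neighbouring ranges overlapped except between Aspn and Lum. In both sets of immortalized lines the range of Bgn was clear of that of the gene below it, whereas the ranges of all other neighbours in the order overlapped.

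**Figure D1:**
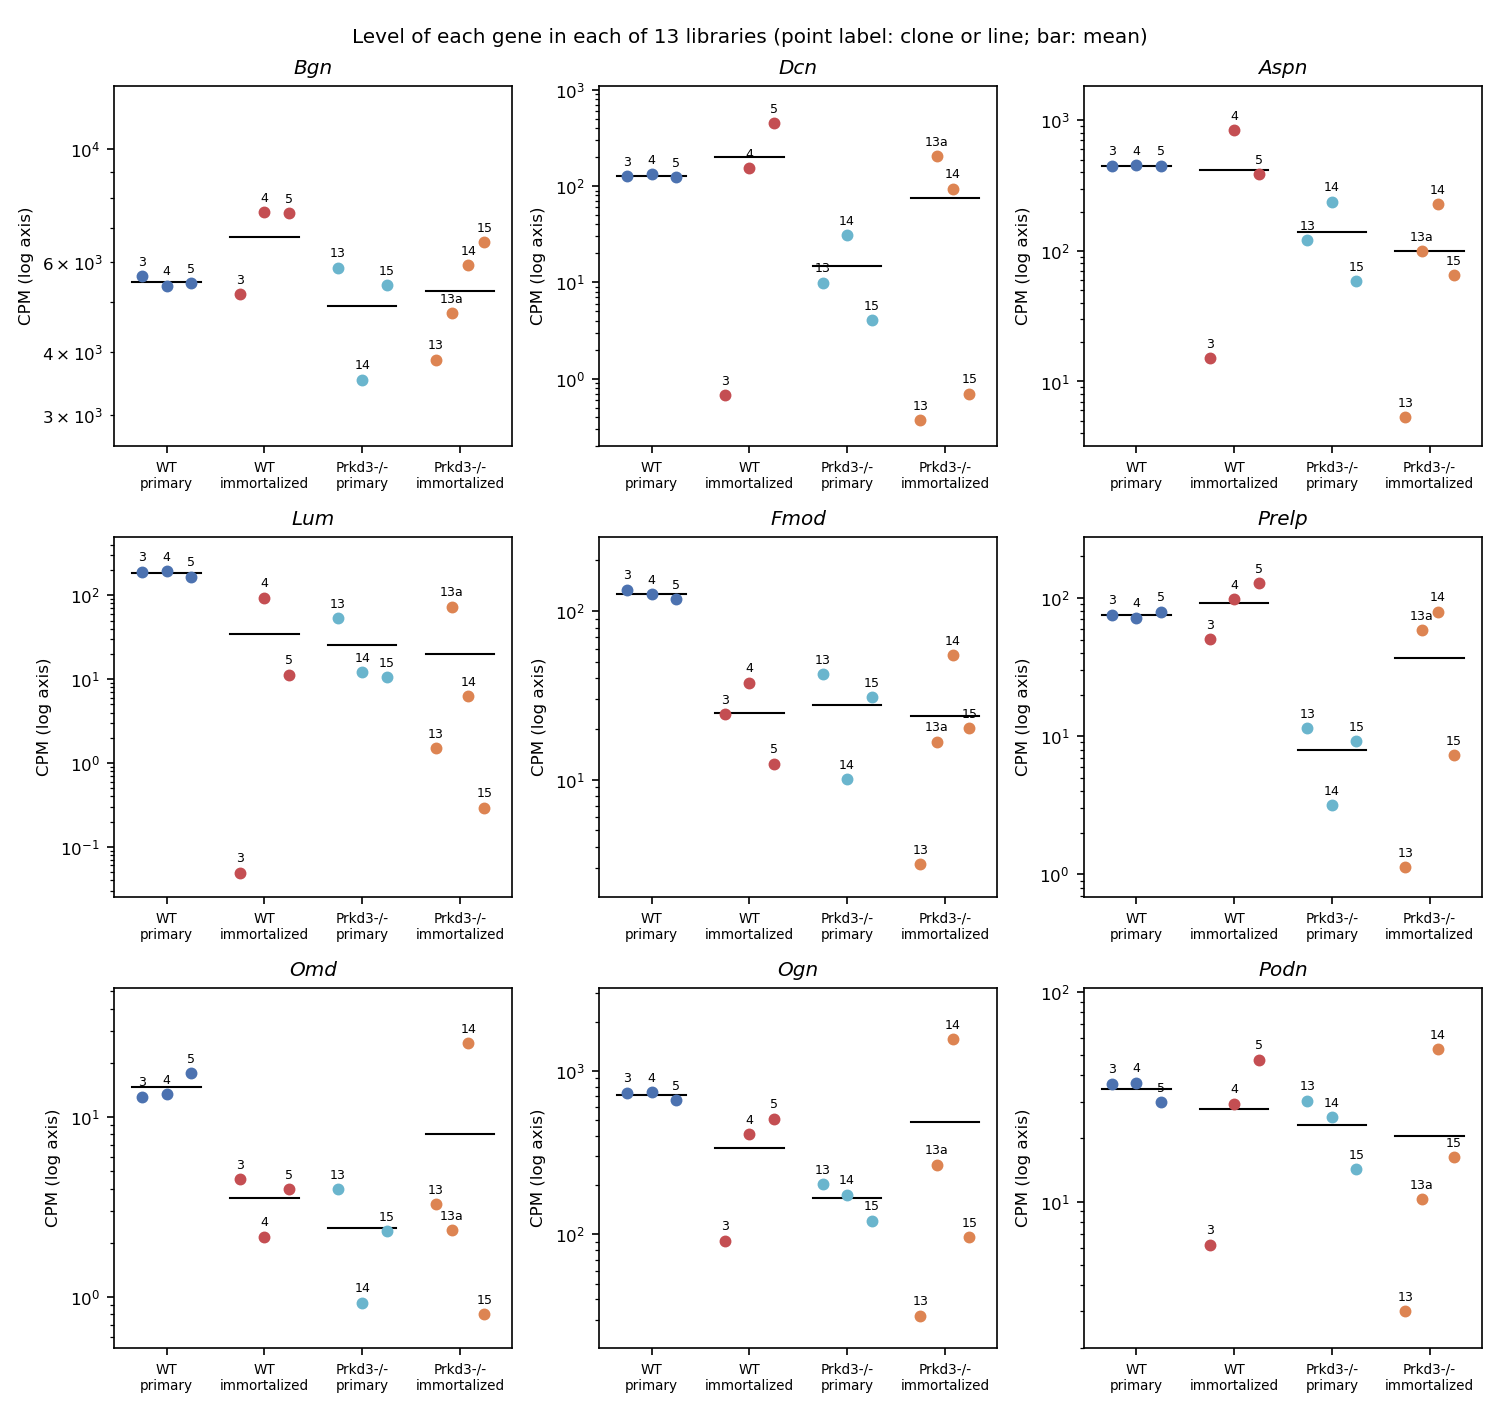
Level of each of the 9 genes in each of the 13 libraries, in CPM on a log axis (TMM scaled, each panel with its own range), by genotype and state; points are libraries labelled by clone or line and bars are group means. WT primary libraries lie close together in every panel, and lines of one genotype spread by up to 1899.9-fold (Lum, WT).

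Of class I, biglycan is a matrix protein with chondroitin or dermatan sulfate chains that also acts as a ligand of Toll-like receptors when soluble. Bgn was counted at 5626, 5383 and 5451 CPM in WT primary clones 3, 4 and 5 and at 5180, 7513 and 7468 CPM in lines 3, 4 and 5. In the Prkd3-/- libraries it stood at 5848, 3524 and 5394 CPM in primary clones 13, 14 and 15 and at 3856, 4756, 5911 and 6564 CPM in lines 13, 13a, 14 and 15. Groups overlapped throughout, and Bgn was between the 5th and the 13th most abundant gene in all 13 libraries. Its Log2FC was 0.30 (SE 0.23) from WT primary to WT immortalized and 0.11 (SE 0.28) in Prkd3-/- MEFs, with 95% intervals of -0.26 to 0.85 and -0.55 to 0.76.

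Decorin, the relative of biglycan that binds collagen I and TGF-β, behaved in another way. Dcn was even in WT primary clones (126, 133 and 125 CPM), but lines 3, 4 and 5 held 0.671, 153 and 452 CPM. Prkd3-/- primary clones 13, 14 and 15 held 9.90, 30.7 and 4.07 CPM, and lines 13, 13a, 14 and 15 held 0.368, 204, 93.6 and 0.695 CPM. Lines of each genotype therefore lay on both sides of all their primary cultures, with a 673-fold range among WT lines and a 555-fold range among Prkd3-/- lines. The Log2FC of 0.68 (SE 1.56) in WT and 2.33 (SE 1.93) in Prkd3-/- MEFs was within this spread (edgeR, adjusted p = 0.852 and 0.858).

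Asporin, which has a stretch of aspartate in place of the chain attachment site, was the most even gene among WT primary clones at 448, 451 and 449 CPM. WT lines 3, 4 and 5 held 15.1, 835 and 387 CPM of Aspn. In Prkd3-/- MEFs its level was 121, 238 and 58.8 CPM in the primary clones and 5.34, 99.6, 227 and 65.3 CPM in lines 13, 13a, 14 and 15. Primary and immortalized ranges overlapped in both genotypes, and lines 3 and 13 were by far the lowest. Aspn shares 0.297% of its exon bases with Cenpp, the centromere protein gene whose span encloses Aspn, Omd and Ogn. Cenpp was counted at 9.56 to 17.1% of the CPM of Aspn in 11 libraries, at 27.7% in line 3 and at 171% in line 13.

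Of class II, lumican carries keratan sulfate in the cornea and regulates fibril assembly in skin and tendon. Lum was counted at 192, 193 and 166 CPM in WT primary clones 3, 4 and 5, and at 0.0491, 93.3 and 11.3 CPM in the lines from them. The value of line 3 rests on 3 counts and is 3738-fold below the primary mean, with a 95% counting interval of 1279 to 18124-fold. Prkd3-/- primary clones held 53.5, 12.2 and 10.5 CPM and lines 13, 13a, 14 and 15 held 1.51, 72.7, 6.23 and 0.294 CPM. All 3 WT lines were thus below all WT primary clones, yet they ranged over 1899.9-fold among themselves, and the Log2FC was -2.39 (SE 1.72, edgeR, adjusted p = 0.505). Its size turned on single lines, at -1.80 without line 3 and -5.00 without line 4 (edgeR, adjusted p = 0.248 and 0.203), and limma gave -5.58 (adjusted p = 0.177). In Prkd3-/- MEFs line 13a was above all primary clones and the other 3 lines below them.

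Fibromodulin binds collagen I and is known for its part in the assembly of tendon fibrils. Fmod stood at 134, 127 and 118 CPM in WT primary clones and at 24.4, 37.7 and 12.4 CPM in lines 3, 4 and 5, without overlap. The Prkd3-/- primary clones 13, 14 and 15 held 42.2, 10.1 and 30.8 CPM and lines 13, 13a, 14 and 15 held 3.15, 16.8, 54.8 and 20.2 CPM, with overlap. Osteomodulin, is known from mineralized tissue. Omd was counted at 13.01, 13.4 and 17.5 CPM in WT primary clones and at 4.50, 2.16 and 3.98 CPM in the lines, again without overlap. Omd in Prkd3-/- MEFs stood at 3.97, 0.930 and 2.32 CPM in primary clones and at 3.27, 2.35, 25.8 and 0.802 CPM in lines 13, 13a, 14 and 15, where line 14 alone exceeded every primary culture of either genotype.

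Prolargin, a heparin-binding member of basement membranes and cartilage, was higher in 2 of 3 WT lines than in any WT primary clone. Prelp was counted at 75.7, 71.9 and 79.7 CPM in the clones and at 50.4, 98.5 and 128 CPM in lines 3, 4 and 5. Prkd3-/- primary clones held far less, at 11.5, 3.15 and 9.21 CPM, and lines 13, 13a, 14 and 15 held 1.12, 58.3, 79.4 and 7.27 CPM. Line 14 therefore lay within the range of the WT clones and line 13a between the clones of both genotypes, whereas lines 13 and 15 were below or within the range of the Prkd3-/- clones. Prelp shares 9.68% of its exon bases with Gm15851, which had 10 to 1699 counts. In the WT table, where reads are shared between overlapping genes, a read there can be counted for both genes. For the Prkd3-/- table the counting options are not given.

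Of class III, osteoglycin is a proteoglycan of bone and vessel wall. Ogn stood at 735, 742 and 661 CPM in WT primary clones, at 91.7, 409 and 510 CPM in lines 3, 4 and 5, at 203, 175 and 121 CPM in Prkd3-/- primary clones and at 31.8, 267, 1558 and 96.0 CPM in lines 13, 13a, 14 and 15. WT lines were all below WT clones, and lines 13a and 14 were above all Prkd3-/- clones while lines 13 and 15 were below them. Podocan, of class V, a matrix protein first known from kidney podocytes, was counted at 36.5, 36.8 and 29.8 CPM in WT clones and at 6.22, 29.3 and 47.6 CPM in WT lines. Podn in Prkd3-/- MEFs stood at 30.3, 25.2 and 14.2 CPM in clones and at 3.00, 10.2, 53.2 and 16.3 CPM in lines, with overlap in both genotypes.

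The effect of immortalization was then tested within each genotype with edgeR's quasi-likelihood test, and a gene was called at an adjusted p under 0.01 and a |Log2FC| of at least 1. In WT MEFs 0 of the 9 genes were called, beside 1.82% of the 19836 genes tested, and 2 had an unadjusted p under 0.05. These were Omd, with a Log2FC of -2.04 (SE 0.30, 95% interval -2.79 to -1.29, edgeR, adjusted p = 0.0198), and Fmod, with a Log2FC of -2.35 (SE 0.40, interval -3.33 to -1.36, edgeR, adjusted p = 0.0300). DESeq2 called both (background 5.85%), as did edgeR at an adjusted p under 0.05 (background 4.38%), limma called Fmod (background 0.998%), and without line 5 edgeR called Fmod (background 3.66%). Both are among the genes that the study selected as changed from these same libraries and are no independent evidence. In 4 genes (Lum, Fmod, Omd and Ogn) all lines were below all primary clones, a pattern seen in 17.4% of all genes tested, and in 0 genes were all lines above (13.5% of all genes). The median Log2FC of the 9 genes was -0.30, against 0.04 over all genes tested.

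With the clone number as a block, 0 of the 9 genes and 0 of all genes were called in WT MEFs. The 8 macrophage markers summed to 585 to 608 CPM in the WT primary clones and to 29.2 to 87.1 CPM in the lines. Of the 8, 5 were called lower (1.76% of all genes tested). None of the 8 was under 1 CPM in all lines. Of 4 endothelial markers tested 1 (Tek) was called lower. At an adjusted p under 0.05 (edgeR, background 4.38%) 3 of 6 chondrocyte markers (Acan, Comp and Col9a1) were lower. So were both epithelial markers tested (Krt18 and Cdh1) and 1 of 2 adipocyte markers tested (Fabp4). Comp, a cartilage and tendon matrix protein, stood at 14.7 ± 1.28 CPM in the clones and 1.32 ± 0.973 in the lines (SD, n = 3). Acan, the aggrecan gene, stood at 7.43 ± 2.44 and 0.194 ± 0.187 CPM. Col9a1 stood at 0.225 ± 0.0330 and 0.00505 ± 0.00875 CPM, under the floor in the lines. Col2a1 (193 and 310 CPM), Sox9 (24.3 and 44.3 CPM) and Matn3 (0.889 and 2.13 CPM) had higher means in the lines, with overlap, and did not pass. Of 4 tendon and 5 osteoblast markers tested 0 passed. Summed osteoblast markers (1775 to 2336 CPM in the clones, 712 to 2295 in the lines) and chondrocyte markers (205 to 263 and 76.4 to 733 CPM) overlapped. Most of the osteoblast sums was Spp1 (1726 to 2287 CPM in the clones, 642 to 2245 in the lines). Bglap, Ibsp and Alpl stayed under 1 CPM in every library. The part of these differences in the levels of the 9 genes was not tested. In bulk RNA, fewer cells of a type and less RNA per cell cannot be told apart.

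**Figure D2:**
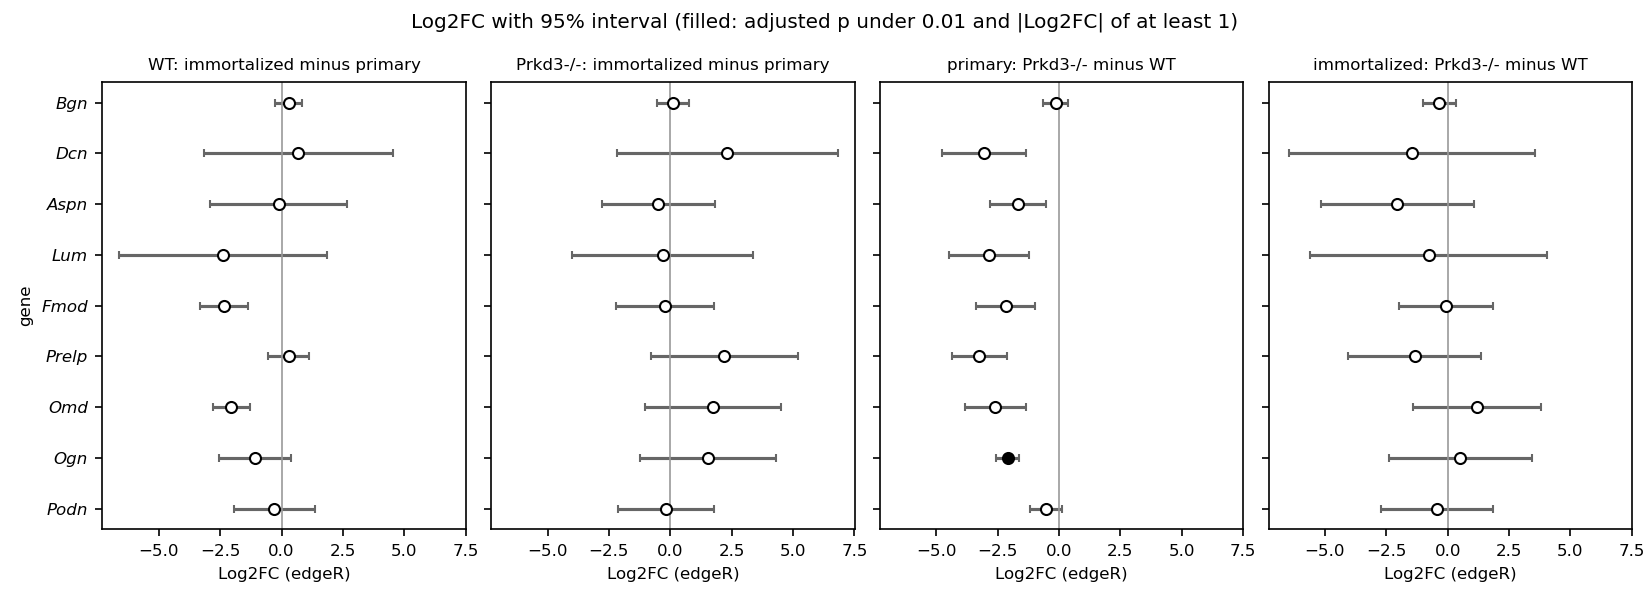
Log2FC of the 9 genes (edgeR) with its 95% interval in 4 comparisons; filled points passed an adjusted p under 0.01 and a |Log2FC| of at least 1. Intervals are narrow for Bgn and wide for Dcn and Lum, and the only filled point is Ogn in primary MEFs, at -2.08.

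In Prkd3-/- MEFs 0 of the 9 genes were called between immortalized and primary cultures by edgeR, DESeq2 or limma, and 0 had an unadjusted p under 0.05. The edgeR background was 0% of 20298 genes, with 1331 genes at an unadjusted p under 0.05, and that of DESeq2 0.800%. All 9 genes overlapped between the states (5.62% of all genes were lower and 3.85% higher without overlap), and no library left out in turn gave a call. Log2FC values ran from -0.49 (Aspn, SE 0.99) to 2.33 (Dcn, SE 1.93), with 5 above 0 and 4 below, and a median of 0.11 against 0.07 over all genes. The 95% interval of Prelp, whose Log2FC was 2.20 (SE 1.28), ran from -0.79 to 5.20, and so included both 0 and rises of well over 2-fold.

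Whether the state effect differed between WT and Prkd3-/- MEFs was tested by the interaction term of a fit to the 13 libraries together, with a call at an adjusted p under 0.05. By edgeR 0 of the 9 genes were called (background 0% of 21197 genes), and by DESeq2 0 as well (background 0.125%). Omd alone had an unadjusted p under 0.05, with a difference of 3.78 (SE 1.41, interval 0.69 to 6.87, edgeR, adjusted p = 1.00), and without line 14 this difference was 1.91. For Fmod, Ogn, Lum, Prelp and Dcn the difference ran from 1.65 to 2.61 with intervals that included 0, and for Bgn it was -0.18 (interval -0.97 to 0.60). Each state effect is relative to the primary cultures of its own genotype.

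Among primary cultures all 9 Log2FC values were below 0 for Prkd3-/- against WT MEFs, with a median of -2.18 against 0.01 over all genes tested. Ogn was called lower, with a Log2FC of -2.08 (SE 0.19, interval -2.55 to -1.61, edgeR, adjusted p = 0.00485), a 4.23-fold difference. This was 1 of 9 genes, beside a background of 0.765% of 20403 genes (0.534% lower). Prelp, at -3.25 (SE 0.46), had an adjusted p of 0.0192 and Omd, at -2.59 (SE 0.51), one of 0.0413 in edgeR, so that 3 of the 9 genes passed at an adjusted p under 0.05 (background 2.98%). Values for the others were -3.07 (SE 0.70) for Dcn, -2.84 (SE 0.67) for Lum, -2.18 (SE 0.49) for Fmod and -1.67 (SE 0.47) for Aspn, with edgeR adjusted p from 0.0572 to 0.0983. Podn, at -0.54 (SE 0.27), and Bgn, at -0.14 (SE 0.20), did not pass the test either (edgeR, adjusted p = 0.281 and 0.722). In 7 of the 9 genes every Prkd3-/- clone was below every WT clone, the exceptions being Bgn and Podn, and this held for 18.8% of all genes tested.

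The number of calls between primary cultures turned on single libraries. Without Prkd3-/- clone 14, which stood apart from the other 2, edgeR called 6 genes (Aspn, Dcn, Fmod, Ogn, Omd and Prelp) while the background rose to 7.13%, and without clone 13 it called Lum and Ogn (background 0.873%). Without WT clone 3, 4 or 5 in turn it called 0 (background 0.00944, 0.00975 and 0.127%). DESeq2 called 7 genes, all but Bgn and Podn, beside a background of 3.75%, and limma called Ogn and Prelp (background 0.990%). The fit over all 13 libraries, in which the wide spread of the lines enters the error, called 0. Fibroblast markers summed to 47361 to 49843 CPM in WT and to 29075 to 49140.3 CPM in Prkd3-/- primary clones, and macrophage markers to 585 to 608 and 81.6 to 878 CPM. Of the 7 fibroblast markers, 4 were lower and 2 higher in all Prkd3-/- clones than in all WT clones. Over all genes tested, these shares were 18.8% and 15.5%. Pdgfrb, the PDGF receptor β gene, was called lower at 203 ± 22.5 CPM against 460 ± 9.95 (SD, n = 3; edgeR, adjusted p = 0.00399), while Fbln2, the fibulin 2 gene, was among those higher, at 3951 ± 445 against 2098 ± 78.6 CPM. Of 6 chondrocyte markers 4 were lower in all Prkd3-/- clones (18.8% of all genes) and 0 were called (background 0.765%). The part of other cells in these differences was not tested.

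Between immortalized lines of the 2 genotypes, 0 of the 9 genes were called by edgeR (background 0.0406% of 19683 genes), DESeq2 (background 0.766%) or limma (background 0.0254%), 0 had an unadjusted p under 0.05, and all 9 overlapped (4.48% of all genes were lower and 4.28% higher without overlap). Log2FC values ran from -2.06 (Aspn, SE 1.33, interval -5.18 to 1.06) to 1.18 (Omd, SE 1.11, interval -1.43 to 3.79). For Bgn the interval was -1.01 to 0.34.

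The 7 immortalized lines were also described singly, against the primary cultures of their genotype. In line 3 all 9 genes were below every WT primary clone, 7 of them by 2-fold or more against the primary mean, the exceptions being Bgn and Prelp. Lines 4 and 5 each held 5 genes below and 4 above all WT clones, and Dcn, Bgn and Prelp were above in both. In the Prkd3-/- set, line 13 had 7 genes below all its primary cultures and 0 above, whereas line 14 had 7 above and only Lum below. Line 13a had Dcn, Lum, Prelp and Ogn above, and line 15 had only Bgn above and Dcn, Lum, Omd and Ogn below. No gene but Fmod and Omd in WT MEFs stood lower by 2-fold or more in every line of its genotype.

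Lines 13 and 13a carry the same clone number, and still 8 of the 9 genes were higher in 13a. The ratio of 13a to 13 was 555 for Dcn, 52.0 for Prelp, 48.2 for Lum, 18.7 for Aspn, 8.40 for Ogn, 5.35 for Fmod, 3.42 for Podn and 1.23 for Bgn, and 0.717 for Omd. With 1 library for each, these ratios have no replicate check. Fibroblast markers summed to 26361 CPM in line 13 and 40060.1 CPM in line 13a, and macrophage markers to 17.1 and 149 CPM. Chondrocyte markers summed to 114 and 896 CPM and osteoblast markers to 3933 and 858 CPM. Spp1 alone ran from 73.3 to 3804 CPM among the Prkd3-/- lines, and Col2a1 alone from 79.6 to 2041 CPM. The highest osteoblast and chondrocyte sums of these lines thus rest largely on single genes. The part of other cells in the ratios of line 13a to line 13 was not tested.

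**Figure D3:**
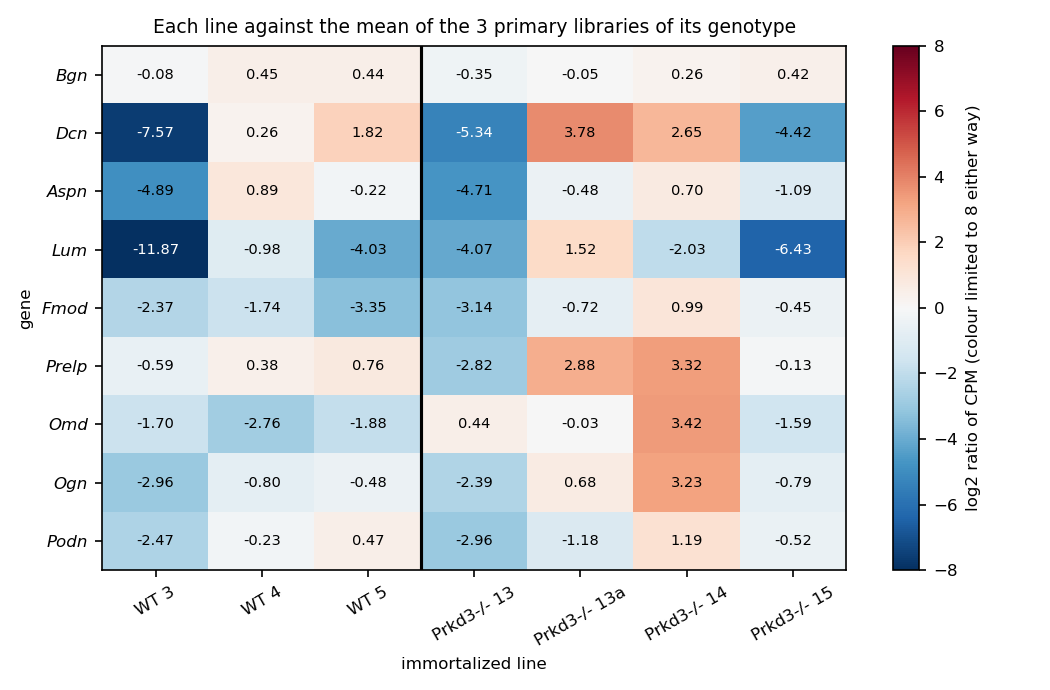
Log2 ratio of the CPM of each gene in each immortalized line to the mean of the 3 primary libraries of its genotype, with the value in each cell. Line 3 is below 0 for all 9 genes, line 14 is above 0 for all but Lum, and the row of Bgn stays between -0.35 and 0.45.

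As a result, the make-up of the family differed between lines. Bgn made up 57.4 to 59.4% of the summed CPM per kilobase of the 9 genes in WT primary MEFs and 75.3 to 90.4% in Prkd3-/- primary MEFs. It made up 92.7%, 66.4% and 71.1% in lines 3, 4 and 5, and 97.1%, 76.8%, 55.3% and 93.3% in lines 13, 13a, 14 and 15. The other 8 genes together held 610.0 to 655 CPM per kilobase in WT clones, 67.1 in line 3 and 18.7 in line 13, while line 14 held 784, of which Ogn was 77.4%. In line 4 the most abundant gene after Bgn was Aspn, and in all other lines it was Ogn.

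Among immortalized lines, Bgn had the smallest spread of the 9 genes in both genotypes. Among WT lines the SD of log2 CPM was 5.41 for Lum, 5.02 for Dcn and 3.07 for Aspn, wider than in 99.9%, 99.8% and 98.4% of the genes tested, beside a median of 0.35 over all of them. It was 1.53 for Podn, 1.35 for Ogn, 0.81 for Fmod, 0.70 for Prelp, 0.56 for Omd and 0.31 for Bgn. In the Prkd3-/- lines Dcn (4.69), Lum (3.34) and Prelp (2.86) led, and Bgn (0.34) was again lowest, below the all-gene median of 0.56. WT primary clones had SD values from 0.01 (Aspn) to 0.23 (Omd), around the all-gene median of 0.09, and Prkd3-/- primary clones from 0.38 (Ogn, next to Bgn at 0.39) to 1.46 (Dcn), above their median of 0.27. These are descriptions over 3 or 4 libraries of a group, not tests.

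**Figure D4:**
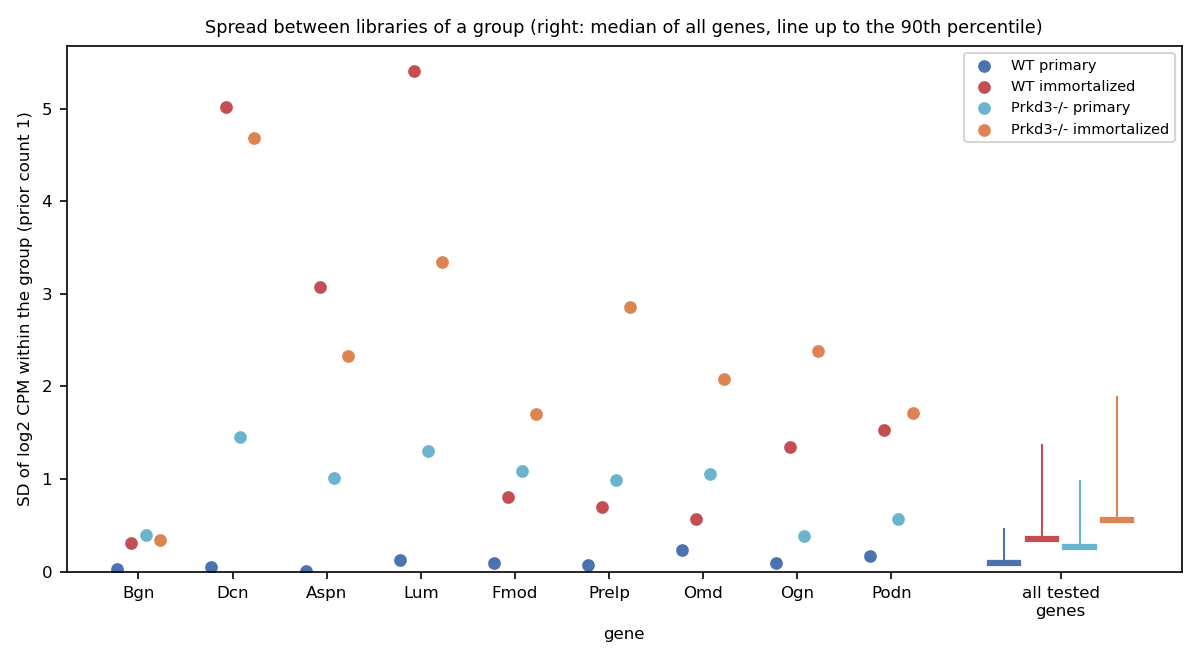
SD of log2 CPM (prior count 1) between libraries of each of the 4 groups for each gene, with the median of all 21197 genes tested at the right as a thick bar and a thin line up to the 90th percentile. Dcn and Lum reach values above 3 in both sets of lines, and Bgn stays under 0.40 in all 4 groups.

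Genes of the same cluster did not move by the same amount in each line. Over the 13 libraries, the root mean square difference between the centred log2 CPM profiles was 2.26 for Dcn and Lum, the 24th smallest of 36 pairs. This measure grows with the spread of each gene, which was wide for Dcn and Lum (SD of 3.56 and 3.66 over the 13 libraries). Ranks therefore do not show which pairs move together, and of the 9 genes Dcn was the closest to Lum. It was 1.09 for Aspn and Ogn (4th), 1.18 for Omd and Ogn (7th), 2.13 for Aspn and Omd (22nd) and 1.59 for Fmod and Prelp (15th). The pair with the smallest difference, Ogn and Podn at 0.75, lies on different chromosomes. In line 13, for example, Aspn was 4.71 and Ogn 2.39 below the primary mean on the log2 scale while Omd between them was 0.44 above it.

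Neighbours outside the 9 genes gave a further comparison. Kera and Epyc, the keratocan and epiphycan genes next to Lum, belong to the family but not to the 9, and reached at most 2.18 CPM in any library. Both were lower in all WT lines (0 to 0.273 and 0 to 0.473 CPM) than in WT primary clones (1.26 to 2.18 and 1.71 to 2.08 CPM). This pattern was seen in 17.4% of all genes tested. Optc, the opticin gene beside Prelp and also of the family, stood at 1.58 to 2.58 CPM in WT clones and 1.61 to 5.26 CPM in WT lines. On chromosome 13, neighbours outside the 9 genes were even or uneven. Ippk and Nol8, on either side of the Aspn cluster, kept to 10.2 to 21.5 CPM and 11.5 to 40.7 CPM over all 13 libraries, against 15.1 to 835 CPM for Aspn in WT lines alone. Ecm2, a matrix protein gene with leucine-rich repeats that lies nearer to Aspn than Ippk does, was less even. It is counted below among the remaining genes of the family. Ecm2 stood at 2.21, 2.41 and 2.20 CPM in WT clones and at 0.344, 7.25 and 1.32 CPM in lines 3, 4 and 5, and reached 12.1 CPM in line 14 beside 0.254 to 1.05 CPM in the Prkd3-/- clones. Line 3 was thus the lowest and line 4 the highest WT line for Ecm2 as for Aspn. Fgd3 ran from 12.1 to 93.2 CPM among the Prkd3-/- lines, and Susd3 stood at 2.66 to 3.78 CPM in WT clones and at 0.0606 to 0.0845 CPM in WT lines. Around Prelp and Fmod, Ppfia4 stood at 3.61 to 4.07 CPM in WT clones and 0.389 to 0.508 CPM in WT lines, and Chil1, under 1 CPM in every WT clone, reached 21.7 CPM in line 5.

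By a rule of likeness, the 3 protein-coding genes with the closest profile over 13 libraries were taken from 10909 genes with a mean of at least 5 CPM, for each gene of the family whose SD over libraries reached 1. For Dcn these were Apod, Kng1 and Kng2 (root mean square difference of 1.46 to 1.69 log2 units), of which the last pair are near copies of each other whose reads may be shared. Lum was closest to Ccdc3, Palmd and Gpm6b (1.57 to 1.80), Aspn to Plxnc1, Lrrn3 and Gas6 (0.53 to 0.67), Fmod to Htra3, Map2 and Eps8l2 (0.66 to 0.74) and Prelp to Clec11a, Sema3b and Serpinf1 (0.91 to 1.11). Omd was closest to Scube3, Clmn and Wnt11 (0.79 to 0.84), Ogn to Cpxm1, Fcgrt and Gsta4 (0.57 to 0.67) and Podn to Fcgrt, Ggt7 and Arsg (0.44 to 0.47). No other gene of the family was among the 3 closest of any. Bgn, with an SD of 0.32, was not searched.

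Genes that build, modify or bind these proteoglycans were tested in the same fits. Of 22 enzymes of the linker and of chondroitin and dermatan sulfate chains, 1 was called higher and 0 lower in WT lines, with a median Log2FC of 0.01. The gene called was Chst11, a chondroitin 4-sulfotransferase, at 60.7 ± 6.88 CPM in the lines and 27.2 ± 2.95 in primary clones (SD, n = 3), a Log2FC of 1.16 (SE 0.13, edgeR, adjusted p = 0.00797). Among 6 large chondroitin sulfate proteoglycans and link proteins tested, 1 was called lower: Hapln1, the link protein of aggrecan, went from 4.91 ± 1.54 to 0.0758 ± 0.0594 CPM (SD, n = 3; edgeR, adjusted p = 0.00781). In the lists of keratan sulfate enzymes (7 tested), sulfate donor synthesis (6) and fibrillar and fibril-associated collagens (13), edgeR called 0 in WT MEFs. It also called 0 of the growth factors and receptors known to bind the family (15), of the proteases known to cleave it (11) and of its remaining genes (6). In Prkd3-/- MEFs edgeR called 0 in any list, and DESeq2 called 1 keratan sulfate enzyme and 1 protease lower (background 0.800%). The edgeR background in WT MEFs was 0.0605% higher and 1.76% lower. At an adjusted p under 0.05 (edgeR, background 4.38%) Chst3 (Log2FC -2.07) and Chst7 (-1.67) of the chain enzymes were lower. So were Acan (-5.25), Bmp2 (-6.31) and Erbb4 (-4.03, 0.204 CPM in the clones). DESeq2 (background 5.85%) called 1 chain enzyme higher and 2 lower. It also called lower 2 keratan sulfate enzymes, 3 growth factors or receptors, 2 large proteoglycans or link proteins and 1 remaining gene of the family.

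Of the lists without a call, the most abundant gene stood as follows in WT lines and clones. Col1a1, the chain of collagen I to which several of these proteins bind, was at 25205 ± 13035 CPM in the lines and 16951 ± 177 CPM in the clones (SD, n = 3), with a Log2FC of 0.57 (SE 0.42). Lrp1, an endocytic receptor of decorin, was at 5377 ± 1815 and 3409 ± 131 CPM, and Pcolce, an enhancer of procollagen cleavage, at 942 ± 370 and 846 ± 31.4 CPM. Tsku, the tsukushi gene of the same family, was at 58.2 ± 22.2 and 51.4 ± 2.30 CPM, the galactosyltransferase gene B4galt1 at 202 ± 66.3 and 185 ± 2.80 CPM and Impad1, a phosphatase gene of the sulfate pathway, at 258 ± 48.3 and 241 ± 7.35 CPM. In Prkd3-/- lines and clones the values were 11006 ± 3469 and 12599 ± 3089 CPM for Col1a1, 2739 ± 1369 and 2377 ± 876 CPM for Lrp1 and 943 ± 429 and 649 ± 78.4 CPM for Pcolce (SD, n = 4 and 3). Chpf, a chondroitin polymerizing factor, was at 232 ± 97.6 and 233 ± 49.8 CPM there, Vcan, the large proteoglycan versican, at 558 ± 302 and 480 ± 131 CPM and Tsku at 42.7 ± 11.6 and 65.6 ± 11.9 CPM. B4galt1 and Impad1 were at 134 ± 66.2 and 191 ± 43.5 CPM in these lines and at 201 ± 7.19 and 236 ± 17.2 CPM in the clones. None of these differences passed the test (edgeR, adjusted p from 0.308 to 1.00).

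Between primary cultures of the 2 genotypes, the same lists held 1 call. Bmp4, a bone morphogenetic protein gene, was called lower in Prkd3-/- clones, at 37.7 ± 7.25 CPM against 90.7 ± 3.56 (SD, n = 3), with a Log2FC of -1.25 (SE 0.14, edgeR, adjusted p = 0.00948). Of the 13 collagens 0 were called, 1 of them (Col11a1) was lower at an adjusted p under 0.05, and 12 were lower in every Prkd3-/- clone than in every WT clone (18.8% of all genes), with a median Log2FC of -0.73 against 0.01 over all genes. Col11a1, a chain of the fibril-forming collagen XI, stood at 324 ± 71.8 CPM against 765 ± 42.3 (SD, n = 3; edgeR, adjusted p = 0.0163). Of 6 remaining genes of the family 0 were called by edgeR and 3 were called lower by DESeq2 (background 3.75%), and the median Log2FC was -0.90. Of 22 chain enzymes 0 were called and the median was -0.14. At an adjusted p under 0.05 (edgeR, background 2.98%) the protease gene Mmp9 was higher in Prkd3-/- clones, with a Log2FC of 1.60. Kera of the family (-4.03), the keratan sulfate enzyme gene B4galt4 (-1.11) and the chain enzyme gene Chst3 (-1.17) were lower at that level. DESeq2 called 2 proteases higher. It also called lower 1 chain enzyme, 1 keratan sulfate enzyme, 2 collagens, 2 growth factors or receptors and 1 large proteoglycan or link protein.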

How the data were processed

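Poly-A RNA from 13 MEF cultures was read on an Illumina instrument. Per the labels, the authors mapped read pairs to mm10 (GRCm38) with STAR 2.7.10a, handled alignments with SAMtools 1.18 and counted reads per Ensembl gene with featureCounts of Subread 2.0.6. The authors deposited raw read counts per gene in a table for each genotype, which list the same 55487 genes. The header of the WT table shows counting without strand and with reads shared between overlapping genes, and the counting options of the Prkd3-/- table are not given in the sources used here. No mitochondrial gene had a count, and 55141 identifiers had a symbol.

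The counts were fitted in R 4.3.3 with edgeR 4.0.16 (TMM, filterByExpr, robust quasi-likelihood test) on the groups of each comparison alone, and p-values were adjusted over all genes tested (Benjamini-Hochberg). The study used DESeq2 and the same thresholds. Standard errors of Log2FC values were obtained as |Log2FC| over the root of the F statistic. CPM values are TMM scaled over the 13 libraries, except those of Prkd3, which are per library total, and root mean square differences use log2 CPM with a prior count of 1. Scripts were tested on simulated data. DESeq2 1.42.0, limma 3.58.1 with a weight per group, other scalings, filters and thresholds, a joint fit, the clone number as a block, lines 13 and 13a summed and each library left out in turn were alternatives.

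WT lines and primary clones of the same number come from the same embryo, and Prkd3-/- cultures share clone numbers in the labels. Deviations from the group means correlated across genes by -0.08, 0.04 and -0.09 between same-numbered WT cultures and by 0.12, -0.31 (13a), 0.05 and 0.05 between same-numbered Prkd3-/- cultures.

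The 9 genes, the lists and the tests were chosen with earlier results of these data known. Named were all 9 genes, the called genes of each pathway list (up to 4) or else its most abundant gene, and the 3 closest profiles per gene. Neighbouring genes of the clusters and marker genes were added as context after their values were seen. So were the list genes named at an adjusted p under 0.05 and those named between primary cultures. Protein sequences were not used here.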

Additional observations from a re-analysis of the deposited data

Results flagged for a closer look

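Dixon's test at 95% was applied to the CPM, not its log, of each of the 9 genes in the 4 Prkd3-/- lines, the only group of 4 or more libraries. It singled out a line in 3 of the 9 tests. The nominal rate of 1 in 20 holds for independent, normally distributed values. Here the 9 genes share the same 4 libraries, and CPM ranged over up to 555-fold among them (Dcn). The rate over all genes was not computed, so the 3 cases are a description only. Lum was high in line 13a, at 72.7 CPM, beside 0.294, 1.51 and 6.23 CPM in the other lines. Omd was high in line 14, at 25.8 CPM, beside 0.802, 2.35 and 3.27 CPM. Ogn was high in the same line, at 1558 CPM, beside 31.8, 96.0 and 267 CPM. Line 14 held 36692 CPM of fibroblast markers, within the range of the other lines, 10.2 CPM of macrophage markers, the least of the 4 lines, 2179 CPM of chondrocyte markers, the most of the 4 (114 to 896 CPM in the others), and 170 CPM of osteoblast markers beside 155, 858 and 3933 CPM. Among these lines Col2a1 alone ran from 79.6 to 2041 CPM and Spp1 alone from 73.3 to 3804 CPM. The highest chondrocyte and osteoblast sums thus rest largely on single genes. Line 13a held the most macrophage markers, at 149 CPM. The part of other cells or of the single libraries in these values was not tested.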

How the results depend on the processing

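The count of family genes called in WT MEFs (0) was 1 without a filter, 2 with DESeq2, 1 with limma, 2 at an adjusted p under 0.05 and 0 to 1 with each library left out. Between primary cultures (1) it was 7 with DESeq2, 2 with limma, 3 at 0.05, 0 in the joint fit and 0 to 6 with each library left out. In the other comparisons it stayed 0 under each alternative run. The replicate block gave 0 calls in WT and in Prkd3-/- MEFs and 0 in the interaction, and changed no call of the 9 genes.

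Signs turned for Log2FC values that were not called. With limma they became -1.81 for Dcn in WT and -0.45 for Dcn in Prkd3-/- MEFs, 0.021 for Lum and -0.49 for Ogn between lines, and 0.29 for Aspn and -0.066 for Podn in the interaction. With the replicate block they became -0.62 for Dcn in WT MEFs and 0.57 for Aspn in the interaction. With lines 13 and 13a summed they became 0.043 for Fmod and 0.13 for Podn in Prkd3-/- MEFs and 0.21 for Fmod between lines, where library size alone gave 0.13. Ranges over single left-out libraries that crossed 0 were, in WT MEFs, -0.72 to 1.26 for Dcn, -1.14 to 0.46 for Aspn, -0.023 to 0.60 for Prelp and -0.95 to 0.18 for Podn. In Prkd3-/- MEFs they were -0.084 to 0.24 for Bgn, -1.28 to 0.14 for Aspn, -3.24 to 0.84 for Lum, -1.03 to 0.21 for Fmod, -0.15 to 2.31 for Omd, -0.33 to 1.94 for Ogn and -1.23 to 0.19 for Podn. Between lines they were -3.70 to 1.83 for Lum, -0.86 to 0.37 for Fmod, -0.69 to 1.56 for Omd, -1.34 to 0.96 for Ogn and -1.48 to 0.22 for Podn, and between primary cultures -0.27 to 0.045 for Bgn. In the interaction they were -1.16 to 0.67 for Aspn, -0.86 to 4.69 for Lum and -0.92 to 0.78 for Podn. Of 72 group levels under other scalings, 1 moved by more than its SD, that of Aspn in WT primary clones (453 CPM by library size alone), and all 36 SD values kept within their range.

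Over all genes, 361 were called in WT MEFs, against 1364 with DESeq2, 198 with limma, 157 with at least 10 counts in every library, 868 at an adjusted p under 0.05, 0 in the joint fit, 0 with the block and 48 to 743 with each library left out. Between primary cultures 156 were called, against 837 with DESeq2, 335 without a filter, 88 with at least 10 counts, 607 at 0.05, 36 in the joint fit and 2 to 1456 with each library left out. Between lines 8 were called, against 181 with DESeq2, 5 with limma, 13 at 0.05, 55 in the joint fit and 0 to 10 with each library left out. Calls numbered 0 in Prkd3-/- MEFs, against 192 with DESeq2 and 1 in the joint fit, and 0 in the interaction, against 37 with DESeq2 and up to 2 with a library left out. Library size alone moved the median Log2FC of all genes from 0.04 to -0.10 in WT MEFs, from 0.06 to 0.21 between lines and from 0.06 to 0.18 in the interaction. The cause of these differences was not tested.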
